A study of Mus musculus with 4 samples.

Results

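Collagens are the triple-helical proteins of the extracellular matrix, and every chain has a gene of its own. The 44 genes described here are all genes of the deposited table, out of 55357, whose symbol is Col, a number, the letter a and a number. The study profiled whole mouse pituitary by single-cell RNA sequencing of 4 libraries. Male mice were 4 weeks old at the start and were then kept for 12 weeks on a high-fat diet (HFD, 2 libraries) or a normal diet (ND, 2 libraries), and the labels say that 3 pituitaries were combined as 1 sample. The labels also name a gonadotroph line, Lbt2, and the gonadotroph cell type for every library, but the matrix held endothelial, immune, glial and all other hormone cells as well, and the cells were treated as whole gland. Barcodes carry numbers 1 to 4 that nothing ties to a library. The HFD and ND cells therefore could not be separated, no diet comparison was made, and the matrix counts as 1 sample without replicates. Cells with the same number are called a set. The sets are not replicates of a group, and values are given over all sets with their range. All intervals are 95% intervals that cover counting error only.

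After filtering, 36207 of 40406 barcodes remained, with 8790 to 9198 cells and 19846 to 23861 collagen UMIs (unique molecular identifiers, counted molecules) per set. Raw totals ran from 81621358 to 92665029 UMIs per set. Of the barcode sequences, 156 occurred in 2 or more sets. Cell classes came from marker genes, none of them a collagen, and the collagens were kept out of the genes used for clustering. There were 14 classes with at least 50 cells. The names end in "-like" because they rest on marker genes alone, and the suffix is left out below. Levels are given as CPM, the per-million scale of a gene's UMIs over all UMIs of the cells of a class. Fibroblasts (398 cells) held the 11 fibroblast markers at a summed 15269.8 CPM, against 336 CPM in endothelial cells, and pituicytes (245 cells) held the 8 pituicyte markers at a summed 4120.0 CPM, against 173 CPM in fibroblasts.

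Collagen chains assemble into trimers inside the cell, are hydroxylated and folded, and are then secreted. Fibril-forming collagens such as types I and III give tissue its tensile strength. Type IV forms the sheet-like network of basement membranes, which in the pituitary lie around the fenestrated capillaries and the cell cords. The FACIT collagens attach to fibrils, the multiplexins XV and XVIII sit in basement membranes, type VI makes beaded filaments next to them, and types XIII, XXIII and XXV are anchored in the plasma membrane of the cell that makes them.

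Fibroblasts had the highest collagen content of the 14 classes, at 6219.5 CPM over all 44 genes (6092 to 6349), from 5899 to 6739 CPM over the sets. Pituicytes, the glia of the posterior lobe, followed with 3611 CPM (3517 to 3706), from 3368 to 3806 CPM over the 3 sets with at least 10 of these cells. Endothelial cells had 2119 CPM (2071 to 2168) and stem or folliculostellate cells 503 CPM (493 to 513). The hormone classes were far below. Lactotrophs had 245 CPM, thyrotrophs 223, gonadotrophs 205, somatotrophs 145, corticotrophs 129 and melanotrophs 80.8 CPM. These levels count hormone genes in the library size. Such genes were 44.4% of UMIs in somatotrophs, and from 7.94% in corticotrophs to 22.2% in lactotrophs among the other hormone classes. T or NK cells, which are not known as collagen makers, had 39.3 CPM (28.8 to 52.4) at a median of 2119.5 UMIs per cell, and B cells 83.2 CPM (53.8 to 123) at 1472 UMIs.

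Hormone cells were 73.0% of the kept cells. Of the 75312 collagen UMIs in named classes, the 6 hormone classes had 55.4% (55.03 to 55.7), stem or folliculostellate cells 13.2%, fibroblasts 11.9%, endothelial cells 9.95% and pituicytes 7.55%. All kept cells held 88586 collagen UMIs. Outside these shares were 6299 in unnamed sub-clusters, 3230 in mixed sub-clusters, 1874 in mixed mural barcodes and 1857 in unnamed clusters. The sub-clusters and mural barcodes came from re-clustered vascular and fibroblast clusters, so shares over all kept cells would differ. Collagens were at 3484 CPM in the unnamed sub-clusters, 1368 CPM in the mixed sub-clusters and 3747 CPM in the mural barcodes. Endothelial cells had 2119 CPM and stem or folliculostellate cells 503 CPM. Shares of the UMIs of single genes, given below, are over all kept cells. They were not set against the part of all UMIs that a class held. Thinned to 1000 UMIs per cell, 99.5% of fibroblasts, 92.2% of pituicytes and 83.1% of endothelial cells had at least 1 collagen UMI. This share was 39.6% in stem or folliculostellate cells, from 9.12% to 21.2% in the hormone classes and 3.19% (1.80 to 5.21) in T or NK cells.

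A gene was assigned to a leading class when that class had the highest CPM over all sets and in every set with at least 10 cells of it, with at least 20 counts there. Of the 44 collagens, 38 reached the count minimum, 33 were assigned and 5 were not. Over all genes, 39.3% of 15906 tested were assigned to any class. Fibroblasts led for 17 collagens, where 3.89% of all tested genes had that leading class. Pituicytes led for 7 (background 4.24%) and endothelial cells for 5 (background 4.63%). Lactotrophs, corticotrophs, melanotrophs and thyrotrophs led for 1 collagen each (backgrounds 1.11%, 3.61%, 1.84% and 2.41%). Stem or folliculostellate cells (3.24%), somatotrophs (0.295%), gonadotrophs (2.92%), macrophages or microglia (3.84%), T or NK cells (3.51%), B cells (1.03%) and proliferating cells (2.70%) led for none. By structure, all 6 type IV genes, 9 of 11 fibril-forming genes and 6 of 9 FACIT genes were assigned.

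**Figure D1:**
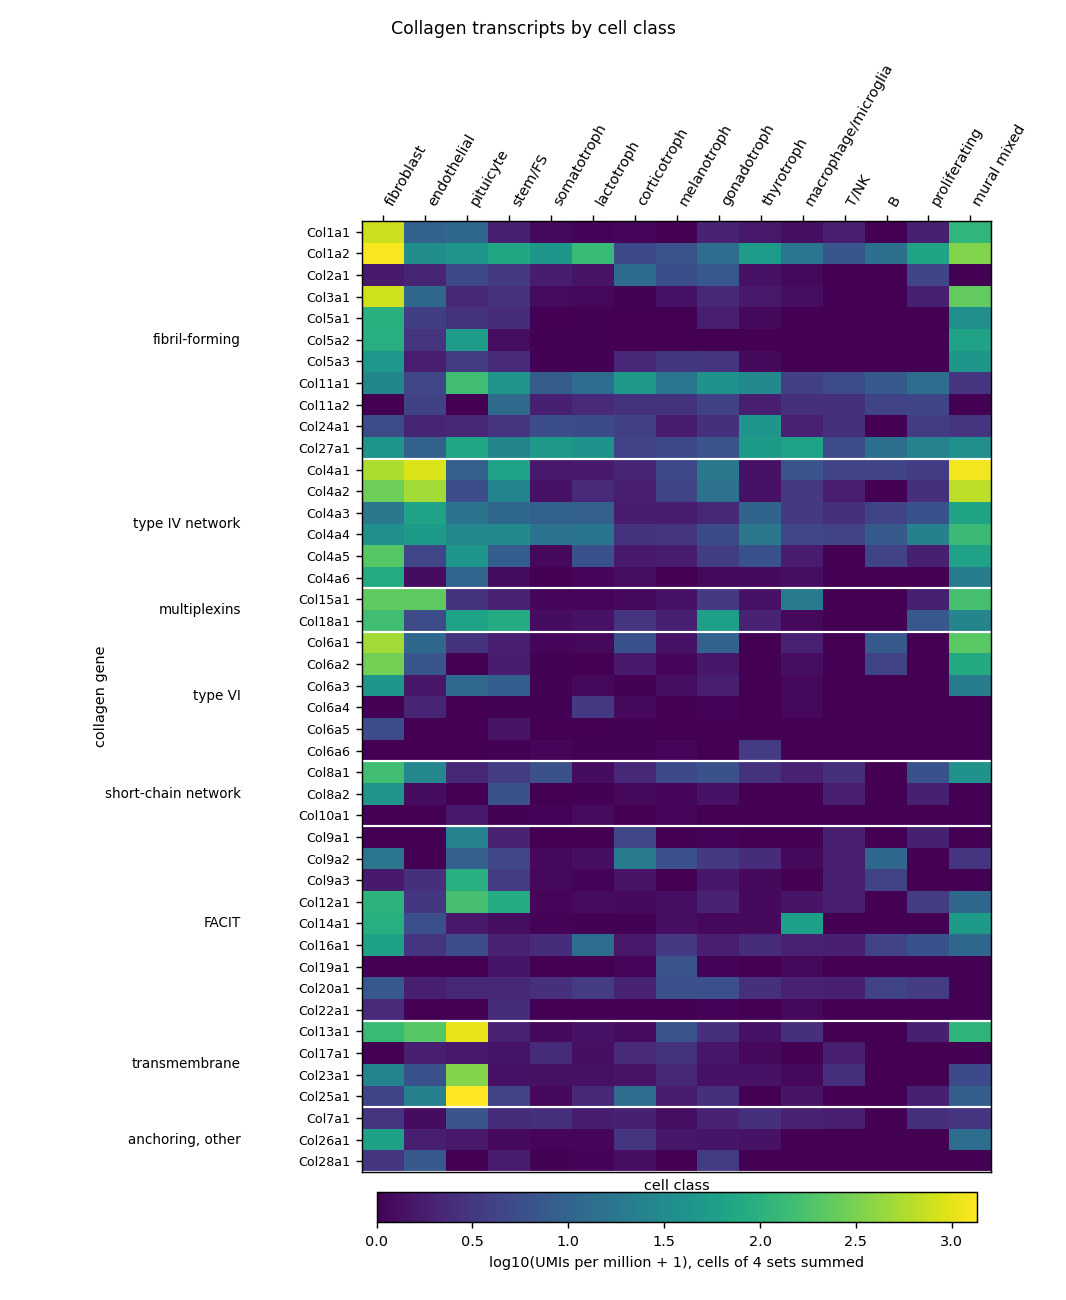
Level of each of the 44 collagen genes (rows, grouped by collagen type) in 14 cell classes and in the mixed mural barcodes (columns), as log10 of CPM plus 1 with all 4 sets summed. Among the 14 cell classes, fibroblasts lead types I, III and V and Col6a1, Col6a2 and Col6a3, endothelial cells Col4a1 and Col4a2, and pituicytes Col13a1, Col23a1 and Col25a1. The mural barcodes, left out of this ranking, stand above endothelial cells for Col4a1 (1186 against 904 CPM) and Col4a2 (652 against 493 CPM).

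In fibroblasts the chains of the major fibrils stood highest. Col1a2, the second chain of type I, was at 1256 CPM (1199 to 1315), with 1255, 1322, 1204 and 1256 CPM in sets 1 to 4. Its partner Col1a1 was at 779.5 CPM (735 to 826), with 724, 812, 758 and 811 CPM. Col3a1, the single chain of type III, was at 799.6 CPM (754 to 847), with 863, 719.5, 887 and 727 CPM. The 4 sets lay close together for all 3 genes. The next class stood at 10.2 CPM for Col1a1 (pituicytes), at 10.5 CPM for Col3a1 (endothelial cells) and at 132 CPM for Col1a2 (lactotrophs). The mixed mural barcodes, left out of the ranking of classes, were higher than these, with Col1a1 at 114, Col3a1 at 242 and Col1a2 at 344 CPM. The fibril-initiating type V chains were lower: Col5a1 at 95.5 CPM against 2.83 in endothelial cells, Col5a2 at 91.4 against 52.7 in pituicytes, and Col5a3 at 46.4 against 2.54 in pituicytes. In the mural barcodes Col5a1 was at 36.0, Col5a2 at 62.0 and Col5a3 at 44.0 CPM. Thinned to 1000 UMIs, 54.5% of fibroblasts had a Col1a1 UMI, against 0.644% of endothelial cells and 0 of 470 T or NK cells, which at the limit of 3 counts allows a share of cells with a UMI of up to 0.638%.

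The start regions of Col3a1 and Col1a2 are shown because Col1a2 departs from Col1a1 and Col3a1 in the hormone cells below. The stretches come from RefSeq promoter windows on GRCm38.p6. Capitals mark the letters CCAAT, the letters TATAAA and the letters GGGCGG, on either strand. Col3a1 is shown for the 120 bases before its start (chr1:45311418-45311537, plus strand). For Col1a2 only the first 30 of the 120 bases before the RefSeq start are shown (chr6:4505498-4505527, plus strand). They do not reach that start, at position 4505618, and lie within the annotated gene, which begins at 4504814. The bases directly before the RefSeq start were not free of annotated exons.
Col3a1: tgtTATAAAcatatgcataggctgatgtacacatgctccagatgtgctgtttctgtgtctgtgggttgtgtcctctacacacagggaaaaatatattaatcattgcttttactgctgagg
Col1a2: aaagaatggaaCCAATttaagaagccccgt

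The filament chains followed the fibrils. Col6a1 stood at 494 CPM in fibroblasts against 10.5 in endothelial cells, Col6a2 at 298 against 5.94 in endothelial cells, and Col6a3, the long chain of type VI, at 44.999 against 10.8 in pituicytes. Per UMI of both, Col6a1 made up 62.3% (59.4 to 65.1) of Col6a1 plus Col6a2 in fibroblasts. Gonadotrophs and corticotrophs had Col6a1 at 8.54 and 5.10 CPM with little Col6a2, since Col6a1 was 93.7% (87.4 to 97.4) and 87.9% (80.6 to 93.2) of the pair there. Short-chain network collagens were also led by fibroblasts, with Col8a1 at 148 CPM against 27.4 in endothelial cells and Col8a2 at 42.2 against 5.06 in stem or folliculostellate cells. The other fibroblast-led genes were the FACIT genes Col14a1 (92.8 CPM, next macrophages or microglia at 56.9) and Col16a1 (60.2, next lactotrophs at 12.7), Col18a1 (149.5, next stem or folliculostellate cells at 82.8) and Col26a1 (60.2, next corticotrophs at 1.9997). Col14a1 and Col18a1 lost the fibroblast assignment with classes by marker score and with every class thinned to the UMIs of the smallest. Col5a3, Col6a3 and Col8a2 lost it with thinned counts, which can take genes at their levels under the count minimum.

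Fibroblasts also led for Col4a5 and Col4a6, type IV chains of specialised basement membranes. Col4a5 was at 205 CPM (182 to 230), with 262, 149.9, 258 and 155 CPM in sets 1 to 4, and pituicytes came next with 44.5 CPM. Col4a6 was at 82.4 CPM, from 59.96 to 155 CPM over the sets, against 9.53 CPM in pituicytes. Sets 1 and 3 were the high ones for Col4a5, and set 1 alone for Col4a6. The widespread Col4a1 came after Col1a2, Col3a1 and Col1a1 among the fibroblast collagens, at 553 CPM, below its endothelial level. The endothelial markers summed to 857 CPM in fibroblasts and 11140.5 CPM in endothelial cells, and their part in the fibroblast Col4a1 level was not tested.

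Re-clustering split the fibroblasts into 3 sub-clusters with different collagen content. The first (242 cells, led by Dpep1, Inmt and Ogn) held 6666 CPM of collagens and the second (129 cells, led by Sfrp4, Igfbp6 and Mfap5) held 4674 CPM. The last and smallest sub-cluster (27 cells, led by Cemip, Ccl11 and Spon1) held 11837 CPM. Col3a1 was at 1942 CPM in the smallest against 723 and 748 CPM in the others. Col15a1, a multiplexin, was at 1390.4 CPM there, 248 in the first and 26.4 in the second. The same order held for Col4a5 (689, 265 and 37.7 CPM), Col4a6 (438, 93.5 and 11.3 CPM) and Col18a1 (438, 173 and 69.7 CPM). Col8a1 ran differently and was highest in the second sub-cluster, at 251 CPM against 85.1 and 125 CPM. Col14a1 had no UMI among the 27 cells. The smallest sub-cluster had 10, 0, 10 and 7 cells in sets 1 to 4, and 2 markers of arachnoid or meningeal cells, Slc6a13 and Foxc1, passed the marker thresholds there. These sub-clusters were defined from genes of the same cells, so the differences are a description.

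**Figure D2:**
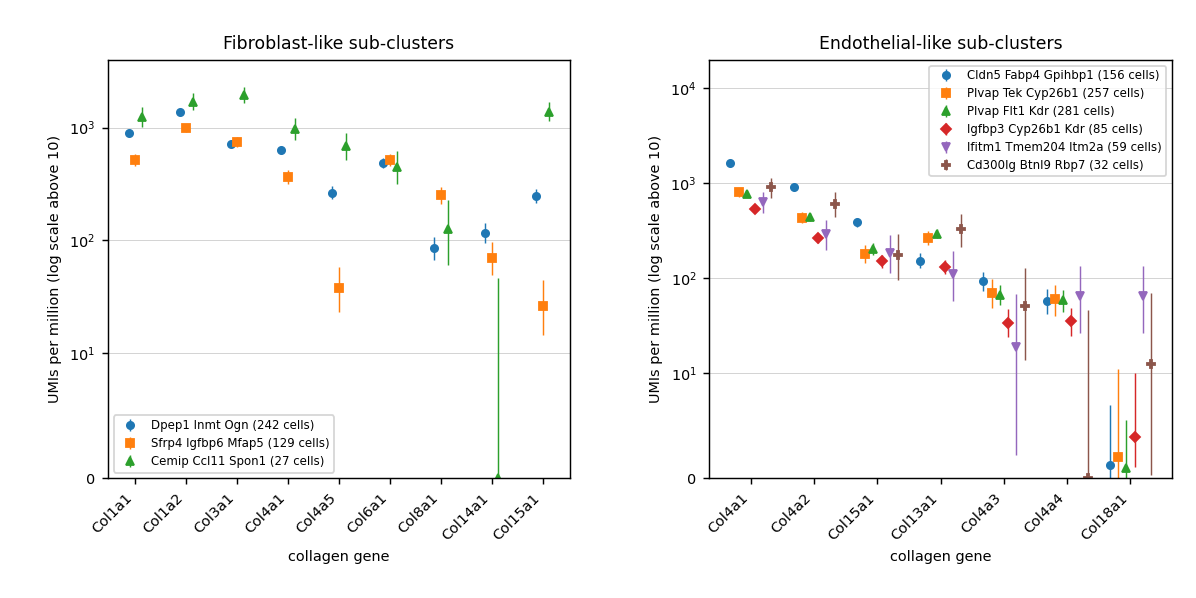
Levels in CPM (log axis above 10) of selected collagens in the 3 fibroblast sub-clusters (left) and the 6 endothelial sub-clusters (right), each named by leading genes, with 95% Poisson intervals. Col15a1 spans 26.4 to 1390.4 CPM among fibroblasts, and Col4a1 is highest, at 1654 CPM, in the endothelial sub-cluster led by Cldn5.

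Mural cells, the pericytes and smooth muscle cells that share the capillary basement membrane, did not separate from endothelial transcripts. A group of 49 barcodes carried all 12 mural markers, with Rgs5 at 6090.0 CPM and Pdgfrb at 664, and also all 10 endothelial markers, with Plvap at 1460 CPM. It had fewer than 50 cells and took no part in the leading classes. Its collagens summed to 3747 CPM (3579 to 3920). Col4a1 was at 1186 CPM (1092 to 1285), Col4a2 at 652, Col1a2 at 344, Col3a1 at 242 and Col6a1 at 212 CPM. Of these barcodes, the 25 with the lower endothelial marker share (median 2199 CPM) had Col4a1 at 913 CPM, and the 24 with the higher share (median 7535 CPM) had 1453 CPM. In the same order Col1a2 was at 279 and 408 CPM, Col3a1 at 206 and 277, Col6a1 at 182 and 241, Col15a1 at 117 and 202, Col1a1 at 109 and 119 and Col6a2 at 88.9 and 75.2 CPM. The counting intervals of the 2 values overlapped for each of these 6 genes. The 2 cell types in these barcodes cannot be told apart from these values.

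Endothelial cells (870) were dominated by the basement membrane chains. Col4a1 was at 904 CPM (873 to 936), with 863, 1088, 873 and 829.5 CPM in sets 1 to 4, and fibroblasts came next with 553 CPM. Col4a2, which joins Col4a1 in the same trimer, was at 493 CPM (469.9 to 516) against 271 CPM. Set 2 was the highest for both genes. The mixed mural barcodes, left out of the ranking of classes, stood above the endothelial cells, with Col4a1 at 1186 and Col4a2 at 652 CPM. Col4a1 made up 64.7% (63.4 to 66.05) of the UMIs of both genes in endothelial cells, 67.1% (64.3 to 69.8) in fibroblasts, 64.5% (61.3 to 67.6) in the mural barcodes and 71.7% (69.5 to 73.8) in stem or folliculostellate cells. These genes lie head to head on chromosome 8, and their annotated starts overlap by 22 bases. That overlap (GRCm38.p6, chr8:11312805-11312826, plus strand) is shown because both genes had the same 2 classes on top, with capitals for GGGCGG.
Col4a1 and Col4a2 overlap: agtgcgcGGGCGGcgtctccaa

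The second head-to-head pair, Col4a3 and Col4a4, encodes chains best known from the kidney glomerulus. Both genes were led by endothelial cells, Col4a3 at 61.9 CPM (54.01 to 70.7) and Col4a4 at 50.4 CPM (43.2 to 58.3), with fibroblasts next at 16.6 and 36.7 CPM. The mixed mural barcodes, left out of this ranking, had Col4a3 at 66.0 and Col4a4 at 136 CPM. The assignment of Col4a4 was lost with doublets kept, with the stricter cell filter, at resolution 0.5, with collagens among the clustering genes and with every class thinned to the UMIs of the smallest, and the last of these also ended that of Col4a3. Thinning can take levels like these under the count minimum by itself. Somatotrophs and lactotrophs had these chains with little Col4a1. Somatotrophs had Col4a4 at 14.7 CPM and Col4a3 at 8.34 CPM, and lactotrophs 15.4 and 8.15 CPM, against 0.659 and 0.699 CPM of Col4a1. Gonadotrophs differed, with Col4a1 at 16.6, Col4a4 at 4.11 and Col4a3 at 1.23 CPM, and corticotrophs had 1.15, 1.90 and 0.800 CPM of these genes. Of all Col4a4 UMIs in the kept cells, 69.8% were in the 6 hormone classes, which were 73.0% of these cells. T or NK cells had Col4a4 at 3.42 CPM (0.931 to 8.75). Between the start of Col4a4 on the minus strand and that of Col4a3 on the plus strand lie 71 bases (GRCm38, chr1:82586850-82586920), printed here on the minus strand because both genes were found in the same classes. None of the 3 motifs occurs in them.
Col4a4 to Col4a3: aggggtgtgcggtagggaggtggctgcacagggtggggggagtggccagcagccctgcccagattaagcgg

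Endothelial cells further had the multiplexin Col15a1 at 225 CPM (210.1 to 242) and the transmembrane Col13a1 at 206 CPM (191 to 221). Col15a1 could not be assigned, since fibroblasts had 229.8 CPM (206 to 256) and each class led in 2 sets. Col28a1 was assigned to endothelial cells at 6.51 CPM on 23 counts, with gonadotrophs next at 2.46. It lost this assignment with any single set left out, with doublets kept and with the stricter cell filter. Among the endothelial sub-clusters, 156 cells led by Cldn5, Fabp4 and Gpihbp1 had Col4a1 at 1654 CPM and Col4a2 at 907 CPM. The 2 sub-clusters of 257 and 281 cells with Plvap as leading gene had Col4a1 at 799 and 769 CPM, and Col13a1 at 264 and 294 CPM against 153 CPM in the Cldn5 group. All Col28a1 UMIs but 1 lay in the Cldn5 group, at 27.4 CPM. A sub-cluster of 59 cells with the fibroblast genes Dcn, Lum and Gsn among its markers had Col1a2 at 223 CPM, against 9.87 to 59.3 CPM in the other endothelial sub-clusters.

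The 3 highest collagens of pituicytes were transmembrane collagens. Col25a1, whose shed ectodomain is known from amyloid plaques and whose product acts in motor nerve development, was at 1355 CPM (1298 to 1414). Sets 1, 3 and 4 had 1408, 1466 and 1218 CPM, and set 2 had only 5 pituicytes. The next class, endothelial cells, had 22.1 CPM. Col13a1, known from the neuromuscular junction, was at 1081 CPM (1030.1 to 1133), with 1112, 961 and 1129.6 CPM in the 3 sets, against 206 CPM in endothelial cells. Col23a1 was at 354 CPM (325 to 384), with 420.0, 403 and 244 CPM, against 24.9 CPM in fibroblasts. All 3 genes were far higher in each of these sets than in any set of the stem or folliculostellate cells, which had 3.29, 0.961 and 0.404 CPM over all sets. The remaining transmembrane gene, Col17a1, was found at no more than 1.89 CPM in any class (melanotrophs, 13 counts).

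The promoter stretches of these 3 genes are printed because they share a leading class. Each is the 120 bases before the RefSeq start on GRCm38.p6, in the direction of the gene, and capitals mark GGGCGG or its reverse complement. Positions are chr3:130180725-130180844 (plus strand) for Col25a1, chr10:61979109-61979228 (minus strand) for Col13a1 and chr11:51289800-51289919 (plus strand) for Col23a1. The annotated Col25a1 gene starts further upstream.
Col25a1: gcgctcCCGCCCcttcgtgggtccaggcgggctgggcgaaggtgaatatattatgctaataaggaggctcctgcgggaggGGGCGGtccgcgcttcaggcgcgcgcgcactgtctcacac
Col13a1: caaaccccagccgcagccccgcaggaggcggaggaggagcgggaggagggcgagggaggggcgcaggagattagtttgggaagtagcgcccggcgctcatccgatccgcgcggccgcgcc
Col23a1: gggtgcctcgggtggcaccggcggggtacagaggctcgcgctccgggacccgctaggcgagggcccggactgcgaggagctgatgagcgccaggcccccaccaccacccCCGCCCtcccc

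Among all 32851 promoter windows, 32.7% held GGGCGG in the 250 bases before the start, 33.8% held CCAAT and 12.4% held TATAAA, counting both strands. Of the 44 collagen genes, 35 were in the promoter table, with 38 windows. GGGCGG was found in 22 of these windows, CCAAT in 13 and TATAAA in 5. The matches describe letters in a window and not a binding site.

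The remaining pituicyte-led genes were FACIT genes and the fibril-forming Col11a1. Col12a1, a FACIT gene whose product binds type I fibrils, was at 163 CPM (143 to 184), with fibroblasts next at 104 and stem or folliculostellate cells at 84.1 CPM. Col11a1 was at 146 CPM (128 to 166), with corticotrophs next at 47.1. Col9a3 was at 92.1 CPM, and the next class, B cells, had a single count (3.33 CPM). Col9a1 was at 23.5 CPM against 3.70 in corticotrophs. Type IX is built from 3 different chains, and the remaining chain, Col9a2, was at only 8.26 CPM in pituicytes. Col9a3 was thus 91.8% (86.3 to 95.5) of Col9a3 plus Col9a2 there and 2.47% (1.13 to 4.63) in corticotrophs, where Col9a2 stood at 17.8 CPM. Col5a2 was at 52.7 CPM in pituicytes with Col5a1 at 1.91 CPM. Col4a1 was at 8.26 CPM, and fibroblast markers summed to 198 CPM.

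With classes set by marker score, the pituicyte class grew to 575 cells, 226 of them shared. Of its 7 collagens, Col25a1 alone then kept the assignment, with Col25a1 at 558, Col13a1 at 444 and Col23a1 at 145 CPM. Col12a1 and Col9a1 also lost the pituicyte assignment with thinned counts, which can take a low level like that of Col9a1 under the count minimum. Col25a1 and Col23a1 span 468.4 and 294.0 kb of the genome, and whether reads in introns were counted is not given in the sources used here.

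**Figure D3:**
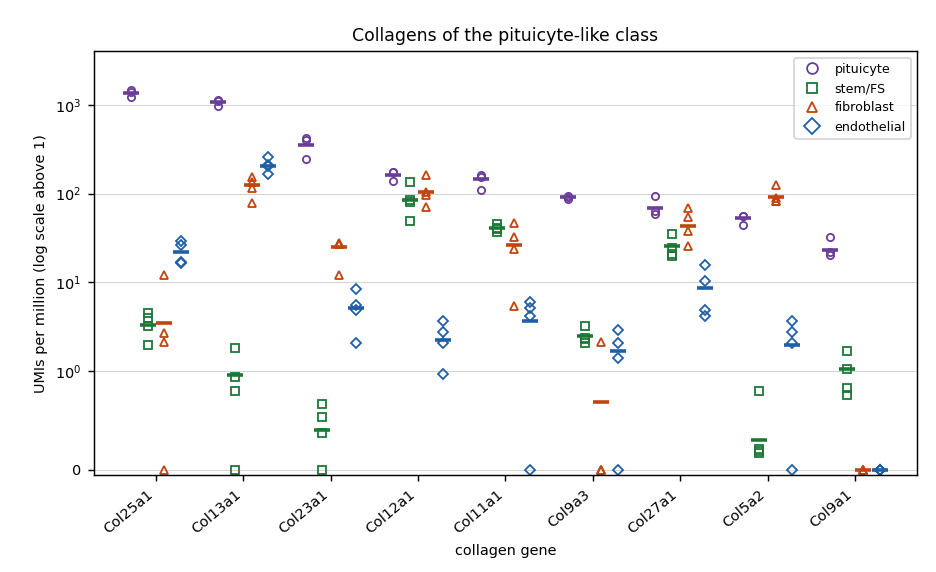
Levels in CPM (log axis above 1) of 9 collagens in pituicytes, stem or folliculostellate cells, fibroblasts and endothelial cells. Open symbols are single sets with at least 10 cells and bars are all sets summed. Col25a1 is at least 1218 CPM in each pituicyte set and at most 29.4 CPM in any set of the other 3 classes.

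Stem or folliculostellate cells (2021), the sustentacular and progenitor cells of the anterior lobe, led for no collagen but held several at a middle level. Col12a1 was at 84.1 CPM (80.1 to 88.3), with 84.3, 81.3, 137 and 49.2 CPM in sets 1 to 4. Col18a1, the source of endostatin, was at 82.8 CPM (78.9 to 86.9), and this class held 51.6% of all Col18a1 UMIs. Col1a2 followed with 74.3, Col4a1 with 62.4 and Col11a1 with 41.0 CPM. Set 4 was lowest for all 5 genes. Col11a2, which pairs with Col11a1 in type XI fibrils, had its highest level here, 11.2 CPM (9.80 to 12.8), and was first in 3 of 4 sets. Col22a1 was also highest here, at 1.57 CPM on 31 counts, with fibroblasts next at 1.38 CPM on 2 counts. A cluster of 526 of these cells with a median of 1029.5 UMIs held 239 CPM of collagens, and the other 1495 cells, with a median of 8953 UMIs, held 552 CPM. Col12a1 was 97.5 CPM in the larger cluster and 11.1 CPM in the shallow one.

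Among the hormone cells, lactotrophs, thyrotrophs and somatotrophs had Col1a2 with almost no Col1a1. Lactotrophs had Col1a2 at 132 CPM (129 to 135), with 119, 132, 136 and 142 CPM in sets 1 to 4, and Col1a1 at 0.0852 CPM on 5 counts. Somatotrophs had Col1a2 at 44.1 CPM (43.1 to 45.2) and Col1a1 at 0.161 CPM, and thyrotrophs 52.4 CPM (46.1 to 59.4) and 0.637 CPM. Over the sets of these 3 classes Col1a2 was never under 37.8 CPM and Col1a1 never over 1.21 CPM. Col1a1 was 38.3% (36.5 to 40.1) of the UMIs of both chains in fibroblasts, 0.0646% (0.0210 to 0.151) in lactotrophs and 0.364% (0.231 to 0.545) in somatotrophs. Col3a1 was as scarce, at 0.153 CPM in lactotrophs. Stem or folliculostellate cells likewise had Col1a2 with 1.21% (0.718 to 1.91) of Col1a1.

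The order of Col1a2 after fibroblasts and lactotrophs was stem or folliculostellate cells, proliferating cells (67.2 CPM), thyrotrophs, somatotrophs, pituicytes (41.9), endothelial cells (34.8), macrophages or microglia (15.8), B cells (13.3) and gonadotrophs (12.1). T or NK cells (5.98, 2.40 to 12.3), melanotrophs (5.38) and corticotrophs (3.90) came last. Counting intervals of neighbours in this order overlapped from macrophages or microglia to the end, and from stem or folliculostellate cells to endothelial cells except between thyrotrophs and somatotrophs. The order counts hormone genes in the library sizes, and these were 44.4% of somatotroph and 14.2% of thyrotroph UMIs. With them left out, somatotrophs had Col1a2 at 79.4 CPM, so their place depends on this choice. Thinned to 1000 UMIs, 11.6% of lactotrophs (10.9 to 12.3), 7.61% of stem or folliculostellate cells, 3.80% of somatotrophs and 4.48% of thyrotrophs had a Col1a2 UMI, against 0.851% of T or NK cells (0.232 to 2.16) and 0.316% of corticotrophs. Unthinned, the share in lactotrophs was 49.5%, at a median of 7015.5 UMIs. Of 4022 lactotrophs with Col1a2, 7 had a UMI of the fibroblast marker Lum and 2 of Col3a1. Of 4096 without it, 4 and 7 did. The fibroblast gene Dcn was found in 2.19% (1.76 to 2.69) of lactotrophs with Col1a2, at a median of 7700.5 UMIs, and in 1.27% (0.9496 to 1.66) of those without, at 6248 UMIs. Endothelial cells differed, with Dcn in 52.9% of 87 cells with Col1a2 and in 13.8% of 783 without. Their medians were 7080 and 2595 UMIs, and the part of fibroblast transcripts in the endothelial Col1a2 was not tested. Of all Col1a2 UMIs, 72.2% were in the 6 hormone classes and 8.999% in fibroblasts. These classes were 73.0% and 1.10% of the kept cells, so the hormone share shows no excess over cell number.

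**Figure D4:**
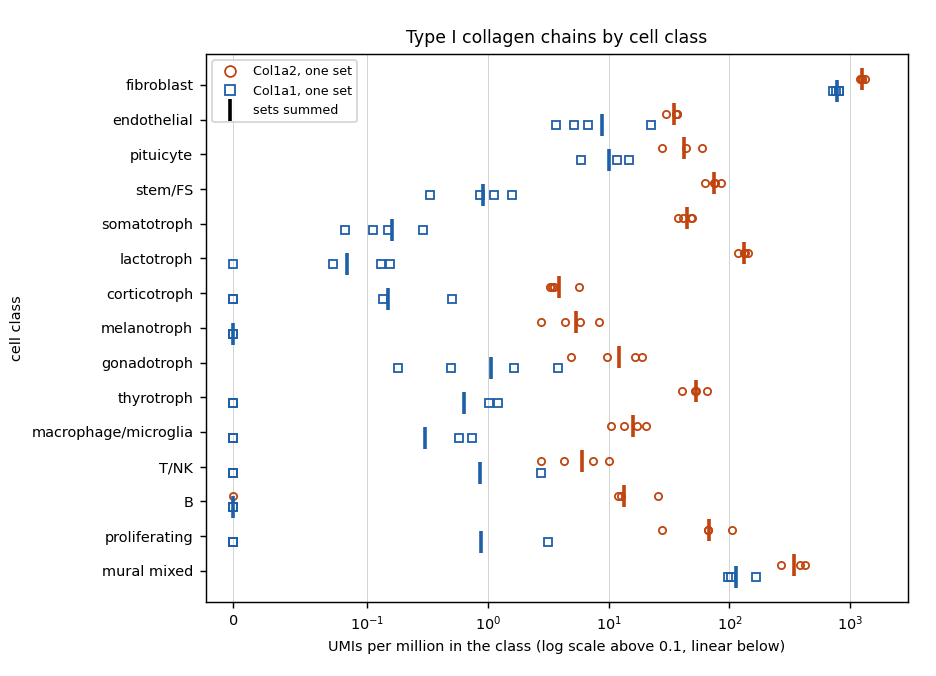
Levels of the 2 type I collagen chains in each class, in CPM (log axis above 0.1, linear below). Open symbols are single sets with at least 10 cells and bars all sets summed. Both chains are high in fibroblasts, while lactotrophs have Col1a2 at 132 CPM and Col1a1 near 0.

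Col27a1, a fibril-forming collagen known from cartilage, was also found in somatotrophs, lactotrophs and thyrotrophs. It was at 48.4 CPM (47.2 to 49.5) in somatotrophs, with 40.6, 31.8, 58.5 and 61.5 CPM in sets 1 to 4, at 39.8 CPM in lactotrophs and at 49.7 CPM in thyrotrophs. Sets 3 and 4 were the high ones in somatotrophs and thyrotrophs, and set 1 was the highest in lactotrophs. Corticotrophs had 3.30 CPM and T or NK cells 4.27 CPM (1.39 to 9.97). Pituicytes had 68.6 CPM and macrophages or microglia 63.5 CPM, and pituicytes led in 1 of 3 sets, so Col27a1 was not assigned. Of its UMIs, 59.8% were in somatotrophs, which were 37.0% of the kept cells. Their part of the UMIs of all genes was not set against this share. With the hormone genes left out of the library sizes, somatotrophs had Col27a1 at 87.0 CPM and Col1a2 at 79.4 CPM.

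Corticotrophs had Col11a1 at 47.1 CPM (44.2 to 50.3), Col9a2 at 17.8, Col25a1 at 12.3, Col2a1 at 11.6 and Col6a1 at 5.10 CPM. Col2a1, the main cartilage fibril, was assigned to them with gonadotrophs next at 6.24 CPM, but not at resolution 0.5, by marker score, when hormone genes were dropped from the library sizes or with thinned counts. Thinning can take a level like this under the count minimum by itself. Col9a2 was not assigned, as fibroblasts had 15.9 CPM and corticotrophs led in 2 of 4 sets. Gonadotrophs had Col18a1 at 57.7 CPM (53.5 to 62.2), from 49.9 to 64.3 CPM over the sets, against 1.9997 CPM in corticotrophs and 0.287 CPM in somatotrophs. Their next collagens were Col11a1 at 38.7, Col4a1 at 16.6, Col4a2 at 14.0 and Col1a2 at 12.1 CPM. Of 75 gonadotrophs with Col1a2, at a median of 19100 UMIs, 4 had Col1a1 and 5 had Lum. Of 886 without it, at 12596 UMIs, 1 and 2 did. The part of fibroblast transcripts in the gonadotroph Col1a2 was not tested. The 10 endothelial markers summed to 81.1 CPM in gonadotrophs and 6.31 CPM in somatotrophs, and their part in the gonadotroph Col4a1 was not tested.

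Thyrotrophs led for Col24a1, a minor fibril-forming collagen, at 42.9 CPM (37.2 to 49.2), with 40.2, 47.8, 45.1 and 35.8 CPM in sets 1 to 4. Somatotrophs came next at 4.65 CPM. The thyrotroph level was 27.7 CPM with the stricter cell filter and also by marker score, and the assignment was lost with thinned counts. Thinning can take a level like this under the count minimum, so the loss cannot tell whether thyrotrophs lead. The same limit holds for Col19a1 and Col6a4 below. Their other leading collagens were Col1a2, Col27a1, Col11a1 (29.1 CPM) and Col4a4 (16.6 CPM). Melanotrophs of the intermediate lobe had the lowest total of the hormone classes. Their highest collagens were Col11a1 at 15.8, Col19a1 at 5.67, Col13a1 at 5.52, Col1a2 at 5.38 and, level with each other, Col20a1 and Col9a2 at 4.80 CPM. Col19a1, a FACIT gene found in neurons, was assigned to them on 39 of 55 counts, against 0.506 CPM in stem or folliculostellate cells, and this was lost with thinned counts. Lactotrophs led for Col6a4 at 2.30 CPM on 135 of 158 counts, with endothelial cells next at 1.13 on 4 counts, and this was lost with doublets kept and with thinned counts. Col6a4 overlaps 2 genes on the opposite strand in the annotation, and whether counting used the strand is not given in the sources used here. Lactotrophs further had Col16a1 at 12.7 and Col11a1 at 12.4 CPM, and somatotrophs had Col11a1 at 7.48 CPM.

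**Figure D5:**
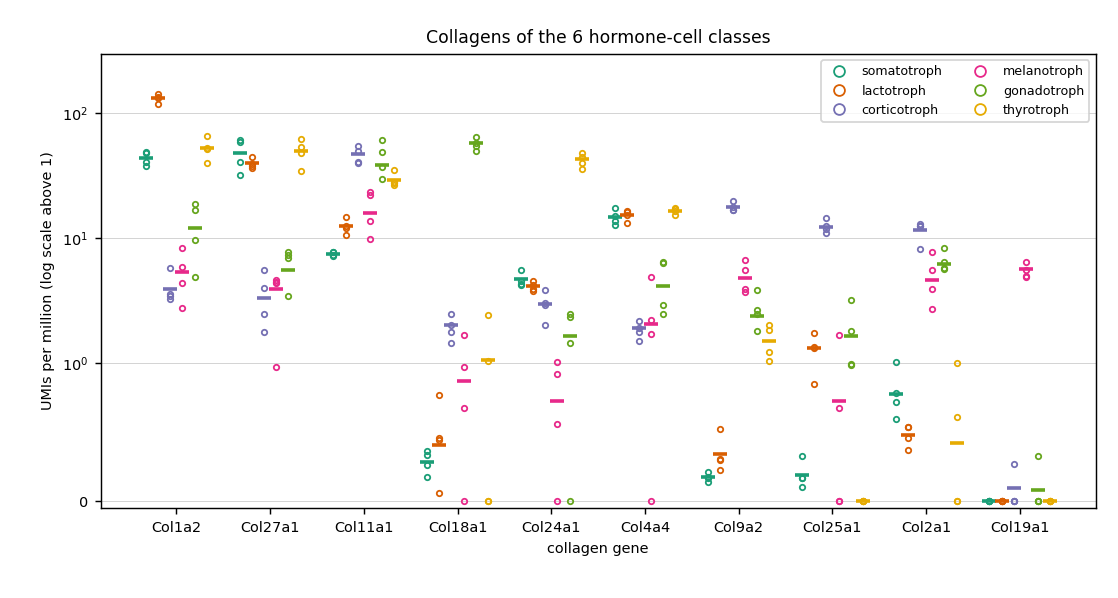
Levels in CPM (log axis above 1) of 10 collagens in the 6 hormone classes. Open circles are the 4 sets and bars all sets summed. Col18a1 is highest in gonadotrophs, Col24a1 in thyrotrophs, Col1a2 in lactotrophs, and Col9a2 and Col25a1 in corticotrophs, with no overlap between the sets of these classes and those of the other 5.

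Macrophages or microglia carried Col27a1 and Col14a1, an undulin that binds fibrils. Col14a1 was at 56.9 CPM (51.2 to 62.9), from 49.95 to 68.1 CPM over the sets. It was highest in 1 of their 3 clusters, at 81.9 CPM in 976 cells against 7.69 CPM in the 264 cells led by Siglech and Crybb1. Col27a1 was the reverse, at 47.5 and 135 CPM. Fibroblast markers summed to 53.7 CPM in macrophages or microglia.

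The remaining 6 collagens had under 20 counts in their highest class and were not assigned. These were Col20a1 (619 counts in kept cells), Col7a1 (409), Col17a1 (318), Col6a6 (35), Col10a1 (31) and Col6a5 (23). Col20a1 and Col7a1 were spread thinly, at no more than 6.23 and 5.72 CPM in any of the 14 classes. Col6a6 had 12 of its counts in thyrotrophs (2.55 CPM). Exons of Col20a1, Col7a1 and Col3a1 overlap another annotated gene on the same strand, BX649560.1, Mir711 and Gm47302.

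Proteins that make, bind and degrade collagen were counted in the same way, against the same backgrounds. All 22 genes of collagen synthesis and secretion reached the count minimum. Of them, fibroblasts led for 5, stem or folliculostellate cells for 2 and endothelial cells, pituicytes and macrophages or microglia for 1 each. Together these were 10 of 22, where 39.3% of all genes were assigned to some class. The backgrounds were 3.89% for fibroblasts, 3.24% for stem or folliculostellate cells, 4.63% for endothelial cells, 4.24% for pituicytes and 3.84% for macrophages or microglia, so the classes with a single gene of the 22 stood near their background. In fibroblasts the transcription factor Creb3l1 was 10.7-fold over the next class (181 CPM), the retrieval receptor Kdelr3 3.18-fold (72.7) and the collagen chaperone Serpinh1 1.90-fold (802). The prolyl hydroxylase subunits P4ha3 (26.5 CPM, 7.60-fold) and P4ha1 (262 CPM, 1.99-fold) were led by stem or folliculostellate cells. Colgalt2 was led by endothelial cells, P3h4 by pituicytes and P3h2 by macrophages or microglia.

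Among 13 genes of procollagen trimming and cross-linking, 9 reached the minimum, and fibroblasts led for 5. These included the cross-linking enzyme Loxl2 (19.3-fold over the next class), the trimming enhancer Pcolce (10.4-fold) and the propeptidase Adamts2 (8.94-fold). Bmp1 was led by pituicytes, and Adamts14, with 34 counts in all and named after its values were seen, by T or NK cells. Among 13 fibril-binding genes, 12 reached the minimum, and fibroblasts led for 11, with Ogn at 55.7-fold, Omd at 25.7-fold and Fn1, which is also a naming marker, at 20.9-fold. Tnxb was led by corticotrophs, at 112 CPM. Among 13 basement membrane partners fibroblasts led for 4, with Lama2 at 53.5-fold, Lamb1 at 7.95-fold and Nid1 at 3.08-fold. Perlecan, Hspg2, was led by endothelial cells (312 CPM) and Nid2 by stem or folliculostellate cells (51.4 CPM). Over all genes, 39.3% were assigned to some class. Backgrounds were 3.89% for fibroblasts, 4.24% for pituicytes, 3.51% for T or NK cells and 3.61% for corticotrophs. They were 4.63% for endothelial cells and 3.24% for stem or folliculostellate cells. For classes with a single gene of a list, no excess over background can be read.

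Collagen receptors also differed by class. Of 9 past the minimum, fibroblasts led for Ddr2 (151 CPM, 5.94-fold), the uptake receptor Mrc2 (309 CPM, 4.24-fold) and the integrin chain Itga11 (2.76-fold). The epithelial receptor Ddr1 was led by stem or folliculostellate cells at 102 CPM, Adgrg1 by endothelial cells at 131 CPM and the inhibitory receptor Lair1 by macrophages or microglia at 302 CPM. Of 10 genes of collagen breakdown past the minimum, fibroblasts led for 4, with Ctsk at 29.5-fold, Fap at 21.7-fold and the gelatinase Mmp2 at 10.04-fold. The inhibitor Timp3 was led by endothelial cells at 2818 CPM, Timp1 by gonadotrophs at 42.04 CPM and Timp4 by stem or folliculostellate cells at 19.4 CPM. The collagenases Mmp8 and Mmp13 were led by somatotrophs (7.46 CPM) and macrophages or microglia (54.9 CPM). Backgrounds were 3.89% for fibroblasts, 3.24% for stem or folliculostellate cells and 4.63% for endothelial cells. They were 3.84% for macrophages or microglia, 2.92% for gonadotrophs and 0.295% for somatotrophs. As above, a single gene of a list cannot show an excess over background.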

How the data were processed

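Whole-pituitary cells were profiled as 10x Genomics 3' libraries, per the labels' protocols. The deposited matrix holds UMI counts per gene and barcode, made by the authors with Cell Ranger 8.0.1 per the file headers. Seurat is also named in the submitters' processing notes, without a role. For the genome build, annotation, intron and strand settings the entry is: not given in the sources used here. Nothing ties the barcode numbers 1 to 4 to libraries, so the matrix was treated as 1 sample and no test was made.

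Barcodes needed at least 500 UMIs, 250 genes and at most 25% mitochondrial UMIs. Of 39839 that passed, 3632 (9.12%) were removed as doublets by Scrublet in scanpy 1.11.5, run per set at an expected rate of 8%. That rate was chosen after the default had marked almost no cells in 2 sets. Cells were clustered by Leiden at resolution 1 on 2000 variable genes without collagens, with 30 components and 15 neighbours. Vascular and fibroblast clusters were clustered again. A cluster was named from at least 3 listed markers at a log2 fold of 0.5 or more and in at least 25% of cells. Both thresholds were picked with the clusters in view. Clusters with markers of several classes stayed mixed or unnamed (3461 cells in unnamed clusters, 153 in unnamed sub-clusters and 167 in mixed sub-clusters).

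Counts were summed per class into CPM with exact Poisson intervals. Shares have exact Clopper-Pearson intervals. No interval covers variation between animals. UMIs from 3' ends are not proportional to transcript length, and capture can differ between genes. Rankings of genes within a class and shares of paired chains therefore compare UMIs and may not match transcript numbers. Every collagen with at least 20 counts in its leading class is named with that class, those with at least 100 counts in all with the next class too, as are the 5 highest collagens of each stromal, glial and hormone class. Of each partner list, up to 3 genes per leading class by fold, with at least 100 counts, are named. The members and lists were chosen with earlier results of these data known. Coordinates are GENCODE vM21 and RefSeq on GRCm38, matched by gene ID and symbol. Alternatives were doublets kept, a stricter filter (1000 UMIs, 500 genes, 10% mitochondrial), resolution 0.5, collagens among the clustering genes, classes by marker score, free RNA subtracted, hormone genes left out of library sizes, other count minimums, thinned counts and each set left out. The count assignment was also run on simulated data, and no result of that run is given here.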

Additional observations from a re-analysis of the deposited data

How the results depend on the processing

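No paired analysis was possible because barcodes carry no library or replicate number and no result comes from a test. The planned HFD against ND comparison, an edgeR quasi-likelihood test with replicate number as a block in its alternative, was not run for the same reason. Endothelial cells led for 5 collagens, and for 3 with doublets kept, 3 with the stricter filter, 3 with collagens among the clustering genes and 2 with every class thinned to the UMIs of the smallest. Pituicytes led for 7, and for 1 with classes by marker score. Stem or folliculostellate cells led for 0, and for 1 (Col11a2) by marker score, with 0 to 1 when each set was left out. With thinned counts the hormone classes led for 0 instead of 4, and 19 instead of 33 collagens were assigned. Thinning leaves fewer counts by construction, and for the other changes the cause was not tested.

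Shares here are of the collagen UMIs in named classes. Fibroblasts held 11.9%, which became 12.9% with doublets kept, 11.3% with the stricter filter, 11.6% at resolution 0.5 and 12.2% by marker score. The fibroblast share was 12.3% with free RNA subtracted and 11.03% to 13.05% with each set left out. Endothelial cells held 9.95%, which became 10.3% with doublets kept, 17.9% by marker score and 10.2% with free RNA subtracted (9.69% to 10.4%). Pituicytes held 7.55%, which became 6.87% with doublets kept, 7.32% with the stricter filter, 7.01% by marker score and 7.79% with free RNA subtracted (5.50% without set 1 to 9.72% without set 2). Stem or folliculostellate cells held 13.2%, which became 14.4% with doublets kept and 12.0% by marker score (12.5% to 14.1%). The hormone classes held 55.4%, which became 52.9% with doublets kept, 56.6% with the stricter filter, 55.8% at resolution 0.5, 47.6% by marker score and 54.5% with free RNA subtracted (54.6% to 57.0%).

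Shares of cells with a UMI moved with depth, given at 1000 UMIs, at 2000 UMIs and unthinned: for Col1a1 in fibroblasts 54.5%, 77.9% and 82.9%, for Col4a1 in endothelial cells 53.4%, 76.4% and 78.5%, for Col25a1 in pituicytes 66.7%, 89.2% and 81.2%, and for Col1a2 in lactotrophs 11.6%, 21.1% and 49.5%. Of 48 levels, 25 moved by over 1.5 times by marker score, 7 with doublets kept, 3 with hormone genes left out and 1 with the stricter filter. With doublets kept, endothelial Col4a1 was 586 CPM and fibroblast Col3a1 526 CPM. By marker score, fibroblast Col1a2 was 763 CPM and Col1a1 452 CPM.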
